A study of Mus musculus with 3 samples.

Results

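The 10 genes of cytokine signaling, Jak1, Jak2, Jak3, Stat3, Stat5a, Stat5b, Cish, Socs1, Socs2 and Socs3, were followed in T cells recovered from melanoma. They were chosen by symbol, and all 10 were found among the 33696 genes counted. The cells were Thy1.1+ pmel CD8+ T cells, which carry a transgenic T cell receptor for the melanoma antigen gp100. Before transfer they were stimulated with gp100 peptide and expanded in super IL-2 (sIL-2), an engineered IL-2 that binds the β chain of its receptor tightly, in sIL-2 + IL-21, or in IL-2/21-Trikine, a fusion of sIL-2 with an IL-21 variant that binds the IL-21 receptor but not the common γ chain. They were then given to irradiated C57BL/6 mice bearing subcutaneous B16F10 melanoma. On day 18 the tumors were dissociated and sorted for live cells positive for Thy1.1 and CD8, and 1 droplet-based 3' RNA library was made for each treatment. The libraries are labelled sIL-2, 2/21-trikine and sIL-2 + IL-21. Mice with 2/21-trikine-expanded cells went on receiving 2/21-trikine, whereas mice with sIL-2-expanded cells and mice with sIL-2 + IL-21-expanded cells both received sIL-2 alone, so IL-21 in the third library acted only before transfer. The groups shared the transgenic receptor, the irradiation and an IL-2 signal, and no library lacked cytokine. The sources used here do not say how many mice each library pools.

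IL-2 acts through the kinases JAK1 and JAK3, bound to the β chain and the common γ chain of its receptor, and mainly activates STAT5A and STAT5B. IL-21 uses the common γ chain with its own receptor and mainly activates STAT3. JAK2 serves other receptors, among them that of interferon γ. Activated STAT proteins enter the nucleus and switch on genes for inhibitors of the pathway: CIS, encoded by Cish, and the SOCS proteins. Cish and Socs2 are textbook STAT5 target genes, Socs3 is one of STAT3, and Socs1 responds to interferons and to γ chain cytokines. SOCS1 and SOCS3 can block JAK activity directly, and CIS restrains T cell receptor signaling in CD8+ T cells.

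STAT dimers bind palindromes of the form TTCNNNGAA, which reads the same on both strands. This motif was searched in RefSeq promoter windows of build GRCm38.p6, each reaching from 250 bases before to 50 bases after a listed start. 9 of the 10 genes had a window, some more than 1, giving 11 windows in all. Socs2 had none. The motif was found in 2 of the 11 windows, those of Cish and Socs3, and in 8.3% of all 32851 windows. Both are printed 5' to 3' on the gene's strand with the motif in capitals, since these are the feedback genes whose start carries the letters of a STAT palindrome. The Cish window is chr9:107296409-107296708 on the plus strand and the Socs3 window is chr11:117969317-117969616 on the minus strand.
Cish: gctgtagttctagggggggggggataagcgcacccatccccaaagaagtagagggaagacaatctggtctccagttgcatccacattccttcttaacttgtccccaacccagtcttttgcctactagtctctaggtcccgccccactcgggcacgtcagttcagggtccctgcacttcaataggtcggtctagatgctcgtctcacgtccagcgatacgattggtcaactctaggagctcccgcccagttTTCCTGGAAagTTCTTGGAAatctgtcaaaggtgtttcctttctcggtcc
Socs3: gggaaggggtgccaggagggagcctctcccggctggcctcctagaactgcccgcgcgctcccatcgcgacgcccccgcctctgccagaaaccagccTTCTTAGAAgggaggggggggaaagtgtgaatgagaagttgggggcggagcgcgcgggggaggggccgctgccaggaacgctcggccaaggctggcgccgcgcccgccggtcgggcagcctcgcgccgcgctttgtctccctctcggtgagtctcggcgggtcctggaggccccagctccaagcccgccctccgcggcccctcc
The Cish window held 2 copies in a row, TTCCTGGAA from base 251 and TTCTTGGAA from base 262 of the window, and 0.457% of all windows held 2 or more. The single copy of Socs3, TTCTTAGAA, began at base 97. These matches describe letters in a window and are not measured binding.

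The 3 libraries held 7760, 13299 and 9798 cells for sIL-2, 2/21-trikine and sIL-2 + IL-21, with 130200802, 166772854 and 168041089 UMIs (unique molecular identifiers, the counted RNA molecules). The median cell held between 10254 and 14055.5 UMIs. Pairs of libraries shared 18 to 41 cell barcodes. All 8 T cell markers were present, summing to between 13821 and 16631 CPM (counts scaled to the same total in each library), against 21.2 to 36.7 CPM for 12 myeloid markers, 1.72 to 2.38 CPM for 4 B cell markers and 2.22 to 8.82 CPM for 5 melanoma markers. Hemoglobin genes stood at 68.7 CPM in sIL-2 and below 1 CPM in the other 2 libraries. With 1 library per treatment there is no spread between mice, so ratios between libraries carry exact 95% intervals for counting error only and no test. A ratio was called when its log2 size reached 0.5, among the 5533 genes averaging at least 20 CPM, a level that 8 of the 10 genes met.

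Among the kinases, Jak2 stood furthest apart. Its level was 182 CPM in sIL-2, 108 CPM in 2/21-trikine and 81.2 CPM in sIL-2 + IL-21, so that the sIL-2 library was high and neither interval touched that of a neighbor. The log2 ratio of 2/21-trikine to sIL-2 was -0.75 (95% interval -0.78 to -0.72), and that of sIL-2 + IL-21 to sIL-2 was -1.16 (-1.19 to -1.13). Jak1, the kinase on the IL-2 receptor β chain, followed the same order at 344, 289 and 260 CPM, with log2 ratios of -0.25 and -0.41 to sIL-2. Jak3, the kinase on the common γ chain, was sparse in all libraries. It stood at 13.2, 10.2 and 11.1 CPM and was left out of the counts of calls. The intervals of its 2 lower values touched, 9.69 to 10.7 CPM and 10.6 to 11.7 CPM. Its log2 ratio of 2/21-trikine to sIL-2 + IL-21 was -0.13 (-0.23 to -0.04).

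Transcripts of the STAT5 pair were ordered like those of Jak1 and Jak2. Stat5a was at 86.3 CPM in sIL-2, 73.2 CPM in 2/21-trikine and 56.6 CPM in sIL-2 + IL-21. Stat5b was at 81.0, 73.0 and 56.6 CPM in the same order. The log2 ratio of 2/21-trikine to sIL-2 was -0.24 (-0.28 to -0.20) for Stat5a and -0.15 (-0.19 to -0.11) for Stat5b. That of sIL-2 + IL-21 to sIL-2 was -0.61 (-0.65 to -0.57) for Stat5a and -0.52 (-0.56 to -0.48) for Stat5b, so both ratios to sIL-2 were larger in size for Stat5a. Against sIL-2 + IL-21, both were higher in 2/21-trikine, with log2 ratios of 0.37 (0.33 to 0.41) for Stat5a and 0.37 (0.33 to 0.41) for Stat5b. Stat5b, Stat5a and Stat3 lie next to each other in this order on chromosome 11. How reads shared by the near-identical parts of the STAT5 pair were counted was not examined. Stat3 was at 650 CPM in sIL-2 and nearly level in the other libraries, 528 and 533 CPM, a log2 ratio between them of -0.01 (-0.03 to -0.001).

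The feedback genes did not share 1 order. Cish was at 185 CPM in sIL-2 and at 133 and 135 CPM in 2/21-trikine and sIL-2 + IL-21, whose difference lay within counting error (log2 ratio -0.02, -0.05 to 0.005). Its log2 ratio to sIL-2 was -0.48 (-0.51 to -0.46) in 2/21-trikine, just short of a call. Socs3 was also highest in sIL-2, at a low level, 12.5 CPM against 6.97 and 7.81 CPM, a log2 ratio to sIL-2 of -0.85 (-0.96 to -0.74) in 2/21-trikine. Between 2/21-trikine and sIL-2 + IL-21 its log2 ratio was -0.16 (-0.28 to -0.05). Socs1 was lowest in 2/21-trikine by small ratios, with 134, 117 and 134 CPM. Its log2 ratio in 2/21-trikine was -0.20 (-0.23 to -0.17) to sIL-2 and -0.19 (-0.22 to -0.16) to sIL-2 + IL-21, and its sIL-2 and sIL-2 + IL-21 values overlapped within counting error.

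Of the 4 feedback genes, Socs2 differed most between 2/21-trikine and each of the other libraries. It stood at 46.5 CPM in sIL-2 and 40.2 CPM in sIL-2 + IL-21 but at 20.6 CPM in 2/21-trikine. The log2 ratio of 2/21-trikine was -1.17 (-1.23 to -1.11) to sIL-2 and -0.96 (-1.02 to -0.90) to sIL-2 + IL-21. At equal depth, after each cell was thinned to 2000 UMIs, 8.31% of sIL-2 cells, 3.52% of 2/21-trikine cells and 7.04% of sIL-2 + IL-21 cells had a Socs2 UMI. Without thinning the shares were 35.5%, 16.2% and 36.2%, where 2/21-trikine also had the lowest median depth.

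**Figure D1:**
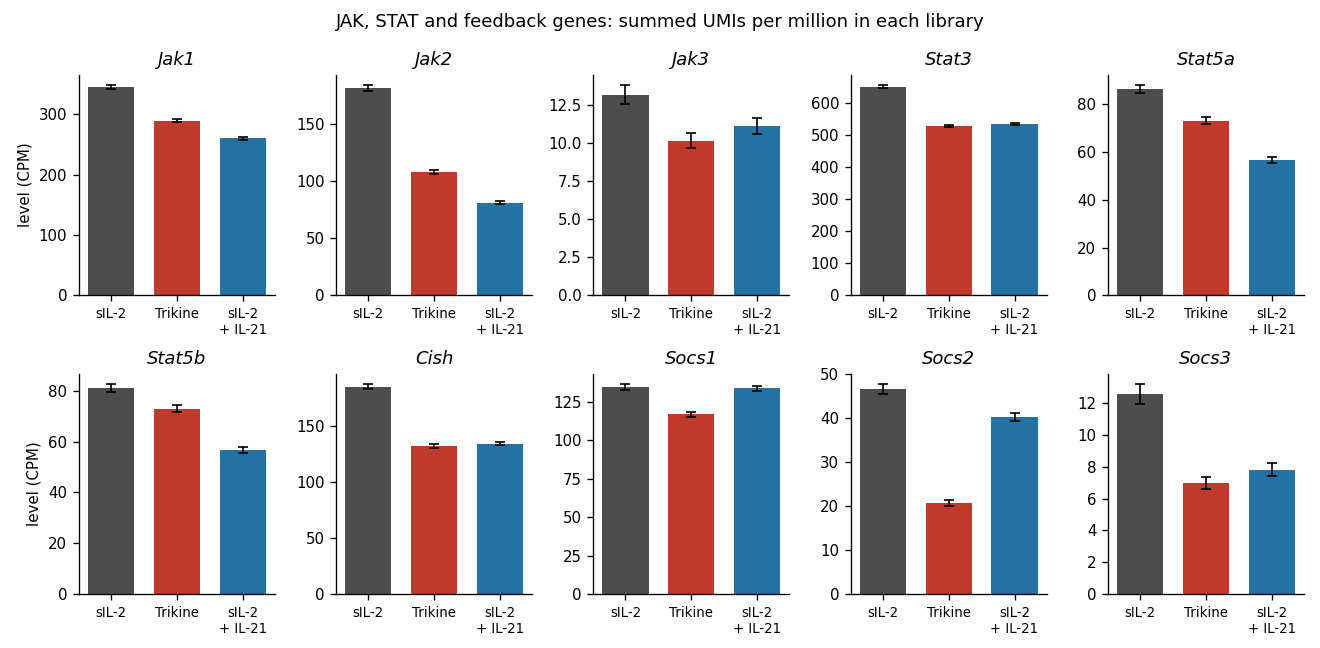
Level of each gene in CPM (scaled UMI counts, y axis from 0, scaled per panel) in the sIL-2, 2/21-trikine and sIL-2 + IL-21 libraries; bars are 1 library each and error bars are exact 95% Poisson intervals for counting error. Jak2 stood at 3 separate levels of 182, 108 and 81.2 CPM, and Socs2 was low in 2/21-trikine alone at 20.6 CPM.

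Of the 8 genes counted, 2 were called between 2/21-trikine and sIL-2, Socs2 and Jak2, both lower in 2/21-trikine, where 7.34% of all genes were called. Between 2/21-trikine and sIL-2 + IL-21, 1 was called, Socs2, beside 5.51% of all genes. Between sIL-2 + IL-21 and sIL-2, 3 were called, Jak2, Stat5a and Stat5b, all lower in sIL-2 + IL-21, beside 14.8% of all genes. The median log2 ratio of the 8 genes was -0.28, 0.07 and -0.43 in these comparisons, against -0.07, 0.01 and -0.07 over all 5533 genes. Medians of the 8 T cell markers were -0.21, 0.11 and -0.27, and those of other pathway lists are given below. Stat5a and Stat5b lost the last call when each cell was weighted equally, which left 1 of 8, beside 12.8% of all genes. Stat5b then had a log2 ratio of 2/21-trikine to sIL-2 of 0.03 in place of -0.15. It also fell short of the last call under TMM or median-ratio scaling.

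**Figure D2:**
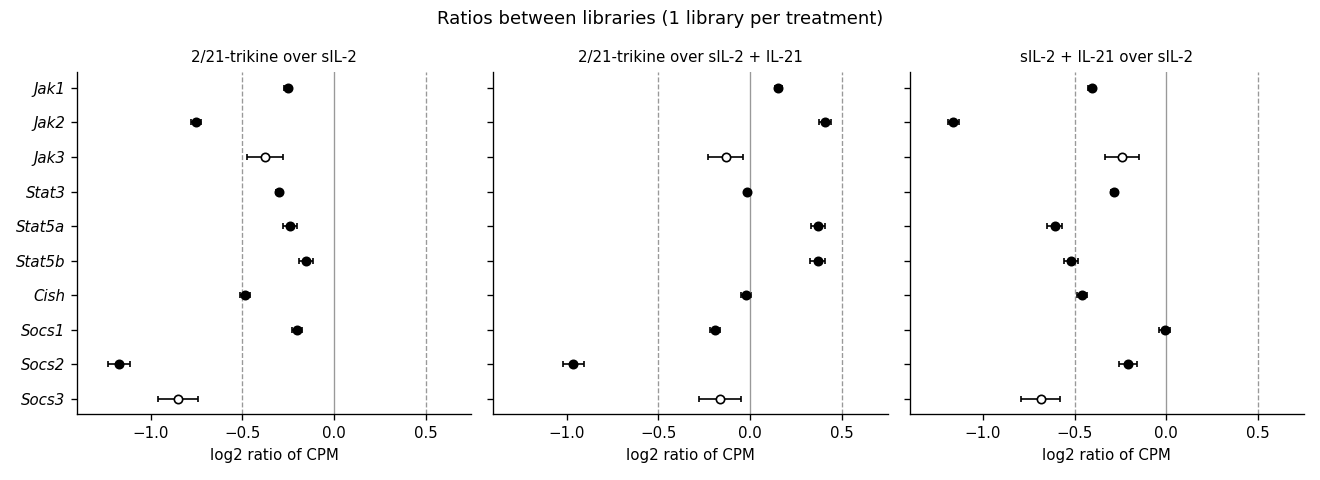
Log2 ratio of CPM (x axis) for each gene in the 3 pairs of libraries; bars are exact 95% intervals for counting error, dashed lines mark a log2 ratio of 0.5 either way, and open circles are genes averaging under 20 CPM. All 10 genes lie left of 0 for 2/21-trikine over sIL-2, where the median of all genes counted is also below 0, at -0.07. Socs2 at -0.96 lies apart from the rest in 2/21-trikine over sIL-2 + IL-21.

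At 2000 UMIs per cell, the other genes gave shares in the order of their levels. A Jak2 UMI was seen in 27.0%, 17.3% and 15.1% of cells and a Cish UMI in 29.5%, 22.8% and 23.7%, for sIL-2, 2/21-trikine and sIL-2 + IL-21. Stat3 was seen in 62.3%, 54.9% and 57.9% of cells, Stat5a in 13.5%, 11.3% and 9.9%, and Socs1 in 21.8%, 20.2% and 21.7%. Socs3 was rare, in 2.64%, 1.29% and 1.59%. These libraries hold no cell type known to lack the genes, so the share that free RNA adds was not measured.

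Because the libraries differ in the cells they hold, each ratio was also taken inside ranges of cells. Cells were scored by their thinned UMIs from a gene list, and the high range began at the 75th percentile of the score over the 3 libraries. Of sIL-2, 2/21-trikine and sIL-2 + IL-21 cells, 13.3%, 25.1% and 34.6% lay in the cycling range (68 genes of S phase, G2 and mitosis). For the early activation range (16 genes such as Nr4a1, Egr1 and Ifng) the shares were 30.2%, 25.9% and 21.4%. For the interferon-stimulated range they were 42.2%, 37.9% and 22.3%, for the terminal cytotoxic range 20.6%, 15.7% and 42.4%, and for the stem-like range 27.5%, 33.9% and 23.7%. A range is a band of a score and not a cell type, and many cells lie at its edge: 1725 of the 2/21-trikine cells held exactly the 2 UMIs that admit a cell to the interferon-stimulated range.

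The high range and the rest of all 5 lists gave 10 sets of cells. These are 5 splits of the same cells, so the sets overlap and are not independent. Socs2 stayed lower in 2/21-trikine than in sIL-2 in each set, with log2 ratios from -1.54 in the early activation range to -0.82 in the terminal cytotoxic range. Jak2 ranged from -0.90 to -0.47, Cish from -0.55 to -0.33 and Socs3 from -1.07 to -0.79 in the same comparison. Against sIL-2 + IL-21, Socs2 in 2/21-trikine ranged from -1.32 to -0.62, again below 0 in all 10 sets. Stat5a and Stat5b were above 0 in all 10 sets in that comparison, from 0.14 to 0.49 and from 0.19 to 0.45. Jak2 was also above 0 in all 10 sets there, from 0.05 in the rest of the terminal cytotoxic list to 0.43. Over whole libraries that Jak2 ratio was 0.41. For 2/21-trikine over sIL-2, Stat5a ranged from -0.35 to -0.002, against -0.24 over whole libraries. The value of -0.002 came from the terminal cytotoxic range, where the counting interval, -0.08 to 0.08, included 0. Socs1 in 2/21-trikine was below 0 in all 10 sets, from -0.27 to -0.16 against sIL-2 and from -0.29 to -0.07 against sIL-2 + IL-21, and took both signs for sIL-2 + IL-21 over sIL-2, above 0 in 5 of 10 sets. In that last comparison Jak2 ranged from -1.22 to -0.84, Stat5a from -0.67 to -0.38 and Stat5b from -0.59 to -0.38. Stat5a was at -0.40 inside the early activation range and at -0.38 in the rest, both short of the fold for a call.

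Other genes of the pathway were followed as lists. Of the other JAK and STAT genes, 3 are given here. Stat4, used by IL-12, had log2 ratios of -0.13 for 2/21-trikine over sIL-2, 0.26 for 2/21-trikine over sIL-2 + IL-21 and -0.39 for sIL-2 + IL-21 over sIL-2. Those of Stat6, used by IL-4, were -0.40, 0.07 and -0.47 in the same comparisons. Stat2, which transmits interferon signals, was at -0.28, 0.46 and -0.74. For each of the remaining lists the 2 highest and 2 lowest genes are named. Of 13 other negative regulators, such as PIAS proteins and phosphatases, 7 were counted. Of these, 0 were called in each comparison, beside 7.34%, 5.51% and 14.8% of all genes. The extremes of this list were Ptpn2 at 0.04, Pias2 at -0.02, Ptpn1 at -0.16 and Pias1 at -0.23 for 2/21-trikine over sIL-2. Over sIL-2 + IL-21 they were Pias1 at 0.27, Pias2 at 0.23, Ptpn6 at -0.08 and Ptpn1 at -0.17. For sIL-2 + IL-21 over sIL-2 they were Ptpn1 at 0.00, Ptpn6 at -0.07, Pias2 at -0.25 and Pias1 at -0.50.

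Of 19 receptor genes, 13 were counted, and 2, 0 and 2 were called in the 3 comparisons, beside 7.34%, 5.51% and 14.8% of all genes. Il2rb, the signaling β chain of the IL-2 receptor, had a log2 ratio of -0.60 for 2/21-trikine over sIL-2 and Il10ra one of -0.80, whereas Il7r was at 0.27 and Ifnar2 at 0.09. Over sIL-2 + IL-21, Il27ra and Ifnar2 were both at 0.48, Il2ra, the α chain of the IL-2 receptor, was at -0.14 and Il2rb at -0.30. For sIL-2 + IL-21 over sIL-2, Il7r was at 0.26, Il12rb2 at -0.02, Il27ra at -0.67 and Il10ra at -1.16. Of 12 STAT5 target genes, 11 were counted, and 3, 4 and 4 were called in mixed directions, beside the same shares of all genes. Pim2, a survival kinase, was at 0.52 and Lta at 0.08 for 2/21-trikine over sIL-2, while Pim1 was at -0.54 and Prf1, which encodes perforin, at -1.02. Over sIL-2 + IL-21, Pim2 was at 0.90, Myc at 0.68, Gzmb at -0.94 and Prf1 at -1.63. For sIL-2 + IL-21 over sIL-2, Gzmb was at 0.62, Prf1 at 0.61, Pim1 at -0.62 and Myc at -0.63. Of 11 STAT3 target genes, 6 were counted and 2, 1 and 1 were called, again beside those shares of all genes. Rora was at 0.57, Fos at -0.04, Bcl6 at -0.36 and Junb at -0.53 for 2/21-trikine over sIL-2. Over sIL-2 + IL-21, Bcl6, a repressor tied to memory T cells, was at 1.09, Rora at 0.12, Bcl3 at -0.09 and Fos at -0.30. For sIL-2 + IL-21 over sIL-2, Rora was at 0.45, Fos at 0.26, Junb at -0.47 and Bcl6 at -1.45. The lists' median log2 ratios for 2/21-trikine over sIL-2 were -0.07 for negative regulators, -0.19 for receptors, -0.18 for STAT5 targets and -0.15 for STAT3 targets, beside -0.07 over all genes. For 2/21-trikine over sIL-2 + IL-21 the medians of these lists were 0.07, 0.17, 0.08 and -0.03, beside 0.01. For sIL-2 + IL-21 over sIL-2 they were -0.08, -0.36, -0.33 and -0.10, beside -0.07.

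Within a library, cells of a high range can be set against the rest, and the 3 libraries repeat the comparison. UMIs were summed over both sets of cells in each library and tested with edgeR's quasi-likelihood test with library as a block, and a gene was called at a Benjamini-Hochberg adjusted p under 0.05 and a log2 fold change of at least 0.5. The spread is that between 3 libraries of different treatments, given as SD. The edgeR p also draws on variability estimated jointly over the genes tested, so it does not measure that SD alone. Fitted fold changes use edgeR's normalization and so can differ from the mean of the plain ratios. Fitted without the block, Stat5a in the cycling range and all 3 genes in the early activation range were still called, and the other calls given here were lost.

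In cycling cells, Jak2 and Stat5a were lower, and no feedback gene was called. Of the 10 genes, 2 were called, a share close to the 20.3% called of all genes. Jak2 stood at 112, 80.8 and 60.5 CPM in the cycling range of sIL-2, 2/21-trikine and sIL-2 + IL-21, against 204, 123 and 101 CPM in the rest. Its mean log2 ratio was -0.74 ± 0.13 (SD, n = 3 libraries; edgeR adjusted p = 1.14e-05). Stat5a stood at 65.0, 58.0 and 45.3 CPM against 93.3, 82.7 and 67.6 CPM, a mean of -0.54 ± 0.04 (edgeR adjusted p = 2.74e-05). Both genes were lower in the range in 3 of 3 libraries. Across libraries the Jak2 values overlapped, with 112 CPM in the cycling range of sIL-2 above 101 CPM in the rest of sIL-2 + IL-21. The highest Stat5a value in the range, 65.0 CPM, lay below the lowest in the rest, 67.6 CPM. Cish was lower by less than the fold required, -0.32 ± 0.06 (edgeR adjusted p = 9.81e-04), as were Jak1 at -0.30 ± 0.04 and Stat5b at -0.23 ± 0.02. Socs1 (0.02 ± 0.10), Socs2 (0.03 ± 0.17) and Socs3 (-0.10 ± 0.05) had edgeR adjusted p of 0.88, 0.80 and 0.23. Both calls ended among cells outside the early activation range, where the fitted log2 fold changes were -0.43 for Jak2 and -0.18 for Stat5a. Of 12 STAT5 target genes 0 were called higher and 5 lower in cycling cells, of 10 STAT3 target genes 0 higher and 5 lower, and of 19 receptors 0 higher and 4 lower. Of 13 other negative regulators 2 were lower, Socs5 and Sh2b3. Of all 14924 genes tested, 1693 were called higher and 1331 lower. Cycling cells were also deeper, with a median of 29531 against 12142 UMIs in sIL-2.

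Genes switched on soon after antigen contact marked the early activation range. Of the 10 genes, 3 were called and all were higher, Stat5a, Jak2 and Cish, beside 22.4% of all genes. Stat5a stood at 150, 130 and 114 CPM in the range and at 54.0, 51.5 and 41.6 CPM in the rest, a mean log2 ratio of 1.42 ± 0.08 (edgeR adjusted p = 1.52e-06). Jak2 stood at 298, 177 and 153 CPM against 122, 80.0 and 62.1 CPM, a mean of 1.24 ± 0.09 (edgeR adjusted p = 2.82e-06). Every library's value in the range lay above every library's value in the rest for both genes. Cish stood at 232, 168 and 181 CPM against 162, 120 and 123 CPM, a mean of 0.52 ± 0.04 (edgeR adjusted p = 3.73e-05). Stat5b, the paralog of Stat5a, had a mean of only 0.11 ± 0.09, and Stat3 one of 0.21 ± 0.09. Socs2 went the other way, at 37.3, 12.9 and 32.1 CPM against 51.1, 23.6 and 42.3 CPM, lower in 3 of 3 libraries. Its mean was -0.58 ± 0.26 with a fitted log2 fold change of -0.47 (edgeR adjusted p = 0.0028), short of the fold for a call. Under the alternative settings the fitted value ran from -0.80 to -0.27, on both sides of that fold. The 2/21-trikine library had the lowest ratio, -0.88. Without the genes that define the range, 5 of 11 STAT5 target genes tested were called higher, Il2ra, Bcl2l1, Ccnd2, Pim1 and Lta, and 0 lower, and 4 of 10 STAT3 target genes were higher and 0 lower. Of 18 receptors tested, 3 were higher, Il2ra, Il15ra and Il21r, and 4 were lower, Il7r, Ifngr1, Ifngr2 and Ifnar2. Of all 14383 genes tested, 1636 were called higher and 1581 lower.

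**Figure D3:**
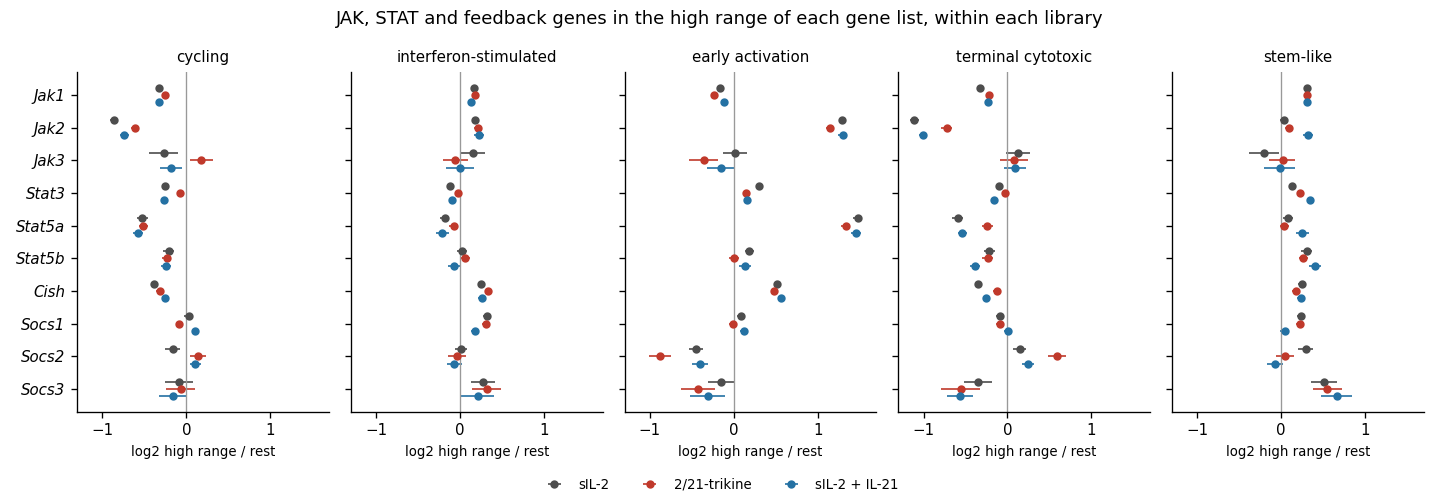
Log2 ratio of CPM in the high range over the rest (x axis) for each gene and library, in 5 panels by gene list; points are libraries and bars exact 95% intervals for counting error. In the early activation panel Stat5a and Jak2 lie between 1.14 and 1.48 while Socs2 lies between -0.88 and -0.40.

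In the interferon-stimulated range, 0 of 10 genes were called, beside 3.73% of all genes, a share at which 10 genes would give few calls. Of the 10, 7 had an unadjusted p under 0.05, as did 5778 of all 14519 genes tested. Cish (0.28 ± 0.05), Socs1 (0.27 ± 0.08) and Socs3 (0.27 ± 0.06) were each higher in 3 of 3 libraries, with edgeR adjusted p of 1.90e-04, 4.14e-04 and 0.0062. DESeq2 also called 0. The shares of all genes that DESeq2 called are not given here or below, so the edgeR shares are not the background of its counts. Stat2 was called higher in this range.

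In the terminal cytotoxic range (granzymes, perforin and inhibitory receptors), 1 gene was called, Jak2, beside 12.1% of all genes. Jak2 stood at 100.5, 70.4 and 56.1 CPM against 217, 116 and 113 CPM, a mean log2 ratio of -0.95 ± 0.20 (edgeR adjusted p = 1.23e-04). Socs2 was higher there, 49.8, 28.1 and 43.1 CPM against 45.0, 18.6 and 36.4 CPM, a mean of 0.33 ± 0.24 (edgeR adjusted p = 0.0055) without reaching a call. Socs3 was lower, -0.49 ± 0.12 (edgeR adjusted p = 0.0063), and without the sIL-2 library it was called as well, giving 2. In the stem-like range (Tcf7 and Il7r among 10 genes), 1 gene was called, Socs3, beside 8.84% of all genes. Socs3 stood at 16.4, 9.01 and 11.3 CPM in stem-like cells and at 11.5, 6.14 and 7.13 CPM in the rest, a mean of 0.57 ± 0.08 (edgeR adjusted p = 9.86e-05). Jak1 was higher by nearly the same ratio in each library, 0.31 ± 0.00 (edgeR adjusted p = 6.34e-05), and Stat5b by 0.32 ± 0.07. The Socs3 call ended when cells were thinned to 1000 UMIs (fitted log2 fold change 0.44) or the range was drawn from the middle of the score (0.40). In each library terminal cytotoxic cells were deeper than the rest and stem-like cells shallower. In sIL-2 the medians were 22056 against 11756 UMIs and 10776 against 14569 UMIs.

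Receptor genes were related to the pathway cell by cell. Cells with at least 1 UMI of a receptor among 2000 thinned UMIs were called carriers and were compared with cells that had none, in the same edgeR test. Il2ra carriers made up 48.0%, 39.1% and 41.7% of sIL-2, 2/21-trikine and sIL-2 + IL-21 cells. In them 2 genes were called, Stat5a and Jak2, beside 1.65% of all genes. Stat5a stood at 109, 92.1 and 65.8 CPM against 65.3, 60.5 and 49.5 CPM in the other cells, a mean log2 ratio of 0.59 ± 0.16 (edgeR adjusted p = 1.29e-04). Jak2 stood at 235, 133 and 93.4 CPM against 130, 89.5 and 71.2 CPM, a mean of 0.61 ± 0.23 (edgeR adjusted p = 4.44e-04). Cish was higher in 3 of 3 libraries by 0.39 ± 0.10 (edgeR adjusted p = 2.39e-04), Socs1 by 0.22 ± 0.06 and Socs2 by 0.16 ± 0.01. Of 11 STAT5 target genes tested, 4 were called higher in Il2ra carriers, Bcl2l1, Myc, Pim1 and Lta. Il2ra itself was called higher in the early activation range. Outside that range the fitted log2 fold changes in Il2ra carriers were 0.39 for Stat5a and 0.36 for Jak2, both short of a call. Without the sIL-2 library, that of Jak2 was 0.48 and its call ended.

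Il21r carriers, 26.1%, 21.6% and 20.5% of cells, had the same 2 genes called, beside 1.39% of all genes. Stat5a stood at 121, 96.3 and 75.8 CPM against 74.8, 66.8 and 52.0 CPM, a mean of 0.59 ± 0.09 (edgeR adjusted p = 1.72e-04). Jak2 stood at 251, 143 and 109.9 CPM against 158, 97.0 and 74.0 CPM, a mean of 0.60 ± 0.06 (edgeR adjusted p = 9.33e-05). Stat3, the main STAT of IL-21, was higher by nearly the same ratio in each library, 0.34 ± 0.01 (edgeR adjusted p = 1.84e-04), at 775, 627 and 638 CPM against 608, 497 and 507 CPM. Outside the early activation range 1 of the 2 calls remained, Stat5a, and Jak2 had a fitted log2 fold change of 0.45.

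For Il7r, the IL-7 receptor chain found on resting and memory T cells, 0 of 10 genes were called in the 30.4%, 36.5% and 38.8% of cells that carried it, beside 3.09% of all genes. Stat5a was lower in Il7r carriers, 65.4, 57.3 and 47.6 CPM against 94.8, 80.8 and 61.2 CPM, a mean of -0.47 ± 0.09 (edgeR adjusted p = 2.63e-05), and Socs3 was higher by 0.39 ± 0.03 (edgeR adjusted p = 4.72e-04). Among cells outside the cycling range, and without the sIL-2 + IL-21 library, Stat5a was called, with fitted log2 fold changes of -0.64 and -0.55. Of the 10 genes, 6 had an unadjusted p under 0.05 for Il7r, as did 6200 of all 14710 genes tested, and DESeq2 called 0. Carriers of Il2rb, Il2rg and Il4ra likewise gave 0 calls, beside 1.12%, 0.693% and 0.378% of all genes, and DESeq2 gave 0 calls for each. For Il2rb, Il2rg and Il4ra, 8, 6 and 7 of the 10 genes had an unadjusted p under 0.05. So did 5270 of 14763, 4376 of 14720 and 2905 of 14267 of all genes tested. Il6st carriers numbered only 58, 119 and 60, and 1 gene was called, Stat5a, with a mean of -0.43 ± 0.14 (edgeR adjusted p = 0.0065), beside 0.56% of all genes. That call was lost with DESeq2 and without either the sIL-2 or the 2/21-trikine library, where the edgeR adjusted p were 0.12 and 0.61.

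**Figure D4:**
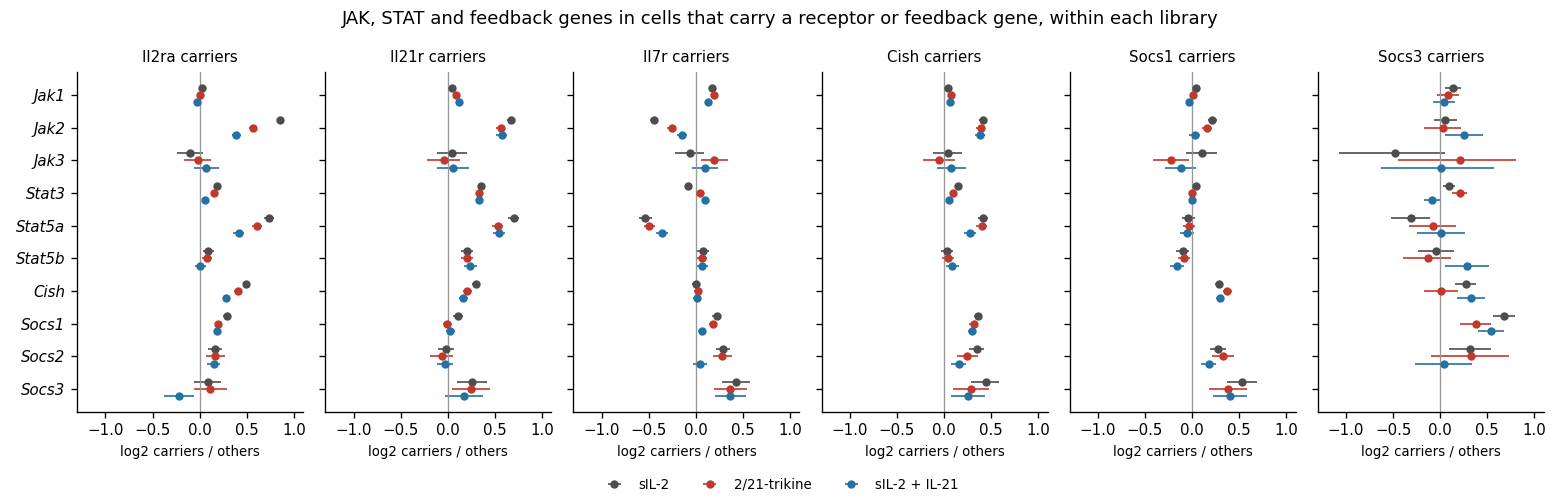
Log2 ratio of CPM in cells that carry the named gene over cells that do not (x axis), for each of the genes and libraries; points are libraries and bars exact 95% intervals for counting error, and the carried gene itself is left out. Stat5a and Jak2 lie right of 0 in Il2ra, Il21r and Cish carriers and left of 0 in Il7r carriers.

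Feedback genes were also related to each other, and in cells carrying 1 of them the others tended to be higher by small ratios. Cish carriers, 29.5%, 22.8% and 23.7% of cells, had 0 of 9 genes called, beside 0.693% of all genes, and DESeq2 also called 0. Of the 9, 8 had an unadjusted p under 0.05, as did 3713 of all 14421 genes tested. In Cish carriers Jak2 was higher by 0.39 ± 0.01 (edgeR adjusted p = 4.23e-08), Stat5a by 0.36 ± 0.08 (edgeR adjusted p = 1.85e-06), Socs1 by 0.32 ± 0.03 (edgeR adjusted p = 5.78e-07), Socs3 by 0.33 ± 0.10 and Socs2 by 0.25 ± 0.10. Each of these was higher in 3 of 3 libraries. Socs1 carriers had 0 of 9 called, beside 0.419% of all genes, and 0 by DESeq2. Of the 9, 5 had an unadjusted p under 0.05, as did 1932 of all 14548 genes tested. Cish was higher in Socs1 carriers by 0.32 ± 0.05, Socs3 by 0.44 ± 0.08 and Socs2 by 0.26 ± 0.08. Socs2 carriers, 8.31%, 3.52% and 7.04% of cells, had 0 of 9 called, beside 0.193% of all genes, and 0 by DESeq2. Of the 9, 4 had an unadjusted p under 0.05, as did 1513 of all 14543 genes tested. Cish was higher in Socs2 carriers by 0.26 ± 0.10 (edgeR adjusted p = 0.011).

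Socs3 carriers numbered 198, 149 and 150, and 1 of 9 genes was called in them, Socs1, beside 2.08% of all genes. Socs1 stood at 212, 152 and 194 CPM in Socs3 carriers and at 133, 117 and 133 CPM in the other cells, a mean of 0.53 ± 0.15 (edgeR adjusted p = 2.24e-13). All 3 carrier values lay above all 3 others. The fitted log2 fold change was 0.52, close to the fold for a call, and without the sIL-2 library it was 0.41 and the call ended.

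Each feedback gene was also set against all 5533 genes over 24 groups of cells, the 8 combinations of cycling, interferon-stimulated and early activation range in each of the 3 libraries. The groups share libraries and the genes that define them, so Pearson's r of log2(CPM + 1) is a description and has no p. Cish was most like Pim1 (r = 0.971), a STAT5 target kinase gene, Furin (0.969), which encodes a protein convertase, and Lcp2 (0.966), the T cell receptor adaptor SLP-76. Among the other chosen genes it was most like Jak2 (0.885). Socs1 was most like Ifitm3 (0.812), an interferon-stimulated gene, then Capza2 (0.734) and Mindy3 (0.713). Socs2 was most like Cmip (0.938), Capn2 (0.934) and Lrrk1 (0.927), and had r = 0.717 with Socs3 and -0.42 with Stat5a. Cap1 (0.891) and Baz2a (0.888) were among the genes most like Socs3. In the 12 groups outside the early activation range Cish ran from 107 to 193 CPM and in the 12 inside it from 131 to 245 CPM, so the 2 sets overlapped.

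**Figure D5:**
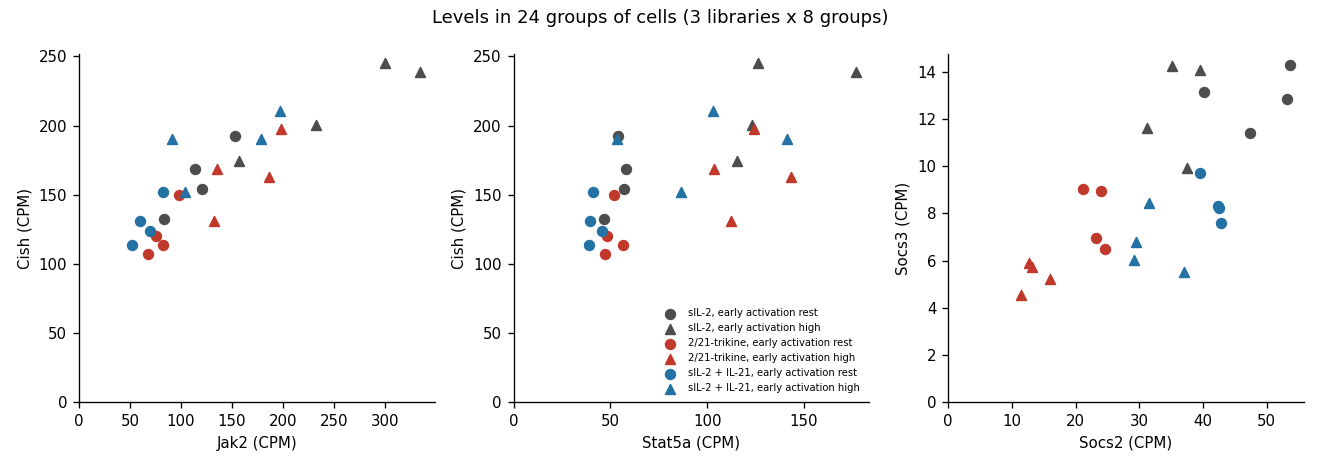
Levels in CPM of Cish against Jak2, Cish against Stat5a, and Socs3 against Socs2 in 24 groups of cells; each point is 1 group, colored by library, and triangles lie in the early activation range. The highest Jak2 group, at 335 CPM in sIL-2, has Cish at 239 CPM, and the 2/21-trikine groups hold the lowest Socs2 values.

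Socs3, sparse in T cells, was higher in the few cells with myeloid marker UMIs. The 124, 90 and 83 cells with at least 3 such UMIs stood at 20.3, 29.4 and 16.0 CPM of Socs3 against 12.3, 6.61 and 7.67 CPM in the other cells. They held 4.59%, 6.54% and 3.28% of its UMIs and 2.83%, 1.55% and 1.60% of all UMIs. These cells were picked by unthinned UMIs, which favors deeper cells. Socs2 was also higher in them, at 56.9, 34.1 and 52.0 CPM against 46.2, 20.4 and 40.0 CPM. Cish and Socs1 were higher in them in 2/21-trikine and sIL-2 + IL-21 but lower in sIL-2. Without all cells carrying markers of other types, the order of the libraries for Socs3 was the same, 12.4, 6.61 and 7.67 CPM.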

How the data were processed

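The 10 genes and all lists were chosen with earlier results of these data known. The deposited values are raw counts of UMIs for each cell and gene, which the authors did not normalize, made with Cell Ranger Count 9.0.0 with intronic reads included. The methods name a GRCm39 reference and the labels mm10. The matrices hold called cells. Cells with 500 to 120000 UMIs and at most 20% mitochondrial UMIs were kept, 30857 of 31026, and no doublet caller was run. No value column was left unused (0). Cells of at least 2000 UMIs were thinned to 2000 with a fixed seed, which left out 3.43%, 13.3% and 3.72% of sIL-2, 2/21-trikine and sIL-2 + IL-21 cells. High ranges began at the 75th percentile of a list score. Sums (6 per test) were tested with edgeR 4.0.16 (filterByExpr, TMM, quasi-likelihood test, library as a block) in R 4.3.3, tested first on simulated data, with Benjamini-Hochberg adjustment over all genes tested. DESeq2 1.42.0, other scalings, filters, thinning depths, cuts and libraries left out were alternatives. Restriction to cells outside the early activation range, and for list ranges to cells outside the cycling range, was chosen after seeing the data. Intervals were computed with scipy 1.17.1 and cover counting error only, not the spread between cells, libraries or mice. Named genes were all 10 chosen genes, the 2 highest and 2 lowest genes of each pathway list per pair of libraries, and the 3 genes most like each feedback gene. List genes named from a range or carrier test were those called. Promoter sequences are from RefSeq, GRCm38.p6. Some genes that these rules or lists include are not reported here.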

Additional observations from a re-analysis of the deposited data

Results flagged for a closer look

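Some genes differed between ranges or carriers in opposite directions in different libraries, with each library's 95% counting interval off 0. None of these differences between libraries was tested. In the cycling range, the log2 ratio of Jak3 was 0.18 in 2/21-trikine but -0.27 in sIL-2 and -0.18 in sIL-2 + IL-21. Socs2 in that range was at 0.14 in 2/21-trikine and 0.11 in sIL-2 + IL-21 but at -0.16 in sIL-2. Socs1 was at 0.106 in sIL-2 + IL-21 and -0.0837 in 2/21-trikine. In Il7r carriers, Stat3 was at 0.0483 in 2/21-trikine and 0.0952 in sIL-2 + IL-21 but at -0.0828 in sIL-2. In Il2ra carriers, Jak1 was at 0.0283 in sIL-2 and -0.0293 in sIL-2 + IL-21. Jak1 in Socs1 carriers was at 0.040 in sIL-2 and -0.0337 in sIL-2 + IL-21. In Il2rb carriers, Jak2 was at 0.0949 in 2/21-trikine and -0.0577 in sIL-2 + IL-21. Il6st carriers, at most 119 cells in a library, gave the remaining splits. There Stat3 was at 0.15 in sIL-2 + IL-21 and -0.28 in 2/21-trikine, Socs1 was at 0.33 in sIL-2 and -0.49 in sIL-2 + IL-21, and Jak2 was at 0.47 in sIL-2 + IL-21 and -0.26 in sIL-2.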

How the results depend on the processing

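No paired analysis between treatments was possible because each treatment has 1 library and the labels give no replicate numbers. Between libraries, the number of genes called of 8 was 2, 1 and 3 for 2/21-trikine over sIL-2, 2/21-trikine over sIL-2 + IL-21, and sIL-2 + IL-21 over sIL-2. It was 1, 0 and 1 at a log2 ratio of at least 1, beside 0.524%, 1.102% and 1.807% of all genes. At 0.25 it was 5, 4 and 6, beside 33.6%, 22.2% and 46.3% of all genes. With each cell weighted equally it was 1 for the last pair, beside 12.8% of all genes. The log2 ratio turned to 0.0306 for Stat5b in 2/21-trikine over sIL-2 with cells weighted equally, and to 0.0261 for Stat3 in 2/21-trikine over sIL-2 + IL-21 with the 8 cell groups weighted equally. Scaling by TMM or median-ratio factors moved the all-gene median log2 ratio for sIL-2 + IL-21 over sIL-2 from -0.07 to 0.03 or 0.02. All genes of that pair moved by the same step, which took Stat5b, at -0.52, short of a call. The counts of the other pairs stayed as they were. For 2/21-trikine over sIL-2 the all-gene median moved from -0.07 to 0.03 or 0.01. Its negative ratios, such as that of Stat5b, became smaller in size by the same step. Of the ratios between libraries under alternative settings, 167 stayed within their main counting interval, 71 moved outside it and 2 changed sign.

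Of the genes called by list range, the cycling list gave 1 in place of 2 without the library block, with the range from the 50th percentile, and with S phase genes only, and 0 outside the early activation range. The interferon-stimulated list gave 1 in place of 0 with thinned UMIs summed and with the range from the 90th percentile. The terminal cytotoxic list gave 0 in place of 1 without the block, and 2 with thinned UMIs summed, with the range from the 90th percentile, and outside the cycling or early activation range. Leaving out 1 library gave it 1 to 2. The stem-like list gave 0 in place of 1 thinned to 1000 UMIs, without the block, and with the range from the 50th percentile. The share of all genes called under each alternative is not given, so these changed counts have no background beside them.

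Of the genes called by gene carried, Il2ra gave 0 in place of 2 without the block and outside the early activation range, and 1 to 2 with 1 library left out. Il21r gave 0 in place of 2 without the block and 1 outside the early activation range. Il7r gave 1 in place of 0 thinned to 1000 or 5000 UMIs and outside the cycling range, 2 with thinned UMIs summed, and 0 to 1 with 1 library left out. Il6st gave 0 in place of 1 thinned to 1000 or 5000 UMIs, with DESeq2, without TMM, without the block, with thinned UMIs summed and outside the early activation range, and 0 to 1 with 1 library left out. Cish gave 1 in place of 0 thinned to 5000 UMIs. Socs1 gave 1 in place of 0 with thinned UMIs summed, outside the cycling range and thinned to 5000 UMIs. Socs3 gave 0 in place of 1 thinned to 1000 or 5000 UMIs, without a filter on genes, without the block, and outside the cycling or early activation range, and 0 to 1 with 1 library left out. The fit without the block adds the differences between libraries to the error. The causes of the other changes were not tested. Here too the shares of all genes called under the alternatives are not given beside the counts.

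Of 182 refitted fold changes of called genes, 149 stayed past the threshold, 33 did not and 0 changed sign. Jak3 and Socs3 rest on under 2000 UMIs in each library, so that their ratios are the least precise. Leaving out 1 library leaves 2 for the spread.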
